A study of Homo sapiens with 6 samples.

Results

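The cytosolic ribosomal protein genes were examined in HCT116 cells, an established human colon cancer line, that stably expressed PHF5A as WT or as the K29Q form. The genes were chosen by symbol, as RPL, RPS or RPLP followed by a number and at most one letter A or X, and by level, as 1 FPKM or more in 3 or more of the 6 libraries. Such a symbol was carried by 76 of the 60675 genes deposited, and all 76 passed the level filter together with 13185 other genes (13261 in all). The level filter left out no gene with a matching symbol: the lowest of them, RPS29, had an FPKM of at least 18.2 in every library, so there was no member just inside the threshold and none just outside it. The 76 genes comprised 46 genes of the large (60S) subunit and 30 of the small (40S) subunit.

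The eukaryotic ribosome joins a small subunit, which binds the mRNA and reads its codons, to a large subunit, which forms the peptide bond and holds the tunnel through which the new chain leaves. Each ribosome takes close to equal amounts of most of its proteins, and their mRNAs are among the most abundant of a growing cell. Most of these mRNAs begin with a C at the cap followed by a run of pyrimidines, the 5′ terminal oligopyrimidine (TOP) motif, through which mTORC1 and the cap-binding protein LARP1 control how strongly they are translated.

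There were 3 WT and 3 K29Q libraries of total RNA, numbered 1 to 3 in each group as in their labels. PHF5A is a small subunit of the SF3B complex, which recognises the branch site of introns, and glutamine is commonly used in place of lysine to mimic its acetylated form. All 6 libraries come from the same parent line and both groups carry an introduced PHF5A, so there was no library of unmodified cells. The labels give no promoter for the introduced gene, no number of clones and no statement on whether libraries of a group were separate cultures, so the spread behind each p-value is that between libraries, and it may be technical only. The comparison asks how the genes differ between K29Q and WT cells.

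FPKM is fragments scaled to transcript length and to the mapped fragments of a library. Levels of different genes can be set side by side only as far as the transcript length used for each gene holds. FPKM sums were 249034 to 253451 per library, 12916 to 13298 genes had an FPKM of at least 1, and the depth of the libraries is unknown. PHF5A, the gene introduced, was at 33.1 ± 1.06 FPKM in the WT libraries and 44.1 ± 2.38 in the K29Q libraries (SD, n = 3 per group). Its adjusted p was 0.110 (limma, Benjamini-Hochberg), and every K29Q library (41.4 to 45.9) lay above every WT library (32.4 to 34.4). Gene totals do not tell the K29Q codon from the WT codon. The K29Q form and a higher total PHF5A level cannot be told apart in this design. Of the 8 markers of colon epithelium KRT19, KRT8, KRT18, EPCAM, CDH1 and CDX2 passed the level filter while VIL1 and CEACAM5 reached at most 0.181 and 0.0249 FPKM in any library, and the summed level of the 8 was 1247 to 1400 FPKM in WT and 1146 to 1200 in K29Q. Summed markers of leukocytes (5 genes), endothelium (3) and erythroid cells (3) reached at most 2.32, 0.292 and 2.91 FPKM in any library. Of these only the leukocyte marker CD68 (1.47 to 1.999 FPKM) and the erythroid marker HBA1 (2.24 to 2.83) passed the level filter. PTPRC and CD3E were at no more than 0.00988 FPKM. Each column header also carried 1 of 2 strings, shared by WT 2, K29Q 1 and K29Q 2 (called run A here) and by WT 1, WT 3 and K29Q 3 (run B). They are read as names of sequencing runs from their form alone, and the labels do not say what they stand for. Differences within each set are given beside the pooled ones.

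The first bases of the transcripts were read for the 61 members found by symbol in RefSeq's promoter table (GRCh38.p14), since the TOP motif is the sequence feature these mRNAs are best known for. The windows below run from 10 bases before to 20 bases from the annotated start, 5′ to 3′ on the transcript strand, and capitals mark the unbroken run of C and T that begins at the start itself. The first 5 belong to abundant members, RPL39 has the longest run, RPS19, RPS23, RPL26 and RPS3A are among those with the largest differences between groups, and RPL10A, RPL4 and RPS26 are members whose annotated start is not a C.
RPS12 (chr6:132814559-132814588, plus strand): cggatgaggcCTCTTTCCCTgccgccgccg
RPS27 (chr1:153990752-153990781, plus strand): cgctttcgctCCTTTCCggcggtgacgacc
RPL41 (chr12:56116623-56116652, plus strand): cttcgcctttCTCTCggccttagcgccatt
RPL13A (chr19:49487598-49487627, plus strand): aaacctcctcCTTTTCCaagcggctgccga
RPS21 (chr20:62387093-62387122, plus strand): ctagctgcttCCTTTCTCTCTCgcgcgcgg
RPL39 (chrX:119791611-119791640, minus strand): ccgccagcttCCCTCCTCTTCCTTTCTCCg
RPS19 (chr19:41860245-41860274, plus strand): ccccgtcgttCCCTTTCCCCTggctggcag
RPS23 (chr5:82278335-82278364, minus strand): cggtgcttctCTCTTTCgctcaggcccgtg
RPL26 (chr17:8383174-8383203, minus strand): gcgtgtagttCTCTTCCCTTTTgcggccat
RPS3A (chr4:151099618-151099647, plus strand): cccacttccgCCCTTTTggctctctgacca
RPL10A (chr6:35468391-35468420, plus strand): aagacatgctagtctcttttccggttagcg
RPL4 (chr15:66504836-66504865, minus strand): cgggagtggtaagcacttccttttcctgtg
RPS26 (chr12:56041908-56041937, plus strand): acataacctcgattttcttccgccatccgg

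The motif searched was a C at the annotated start followed by at least 4 bases that are each C or T, on the transcript strand only. Of the 61 members 45 (73.8%) had such a start, against 621 of 8774 other tested genes in the same table (7.08%). The run was 5 to 19 bases long in the 45 members, with a median of 8. When the start was allowed to lie up to 5 bases to either side, 52 members (85.2%) and 2560 other genes (29.2%) had the motif. Windows such as those of RPL4 and RPS26 show pyrimidine runs that begin a few bases after the annotated start. A match describes these letters only, and a gene with several annotated starts was counted once if any start matched.

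Shares of other promoter motifs lay closer to those of other genes. In the window from 250 bases before to 50 after the start, CCGGAAG, the core bound by ETS factors, was found on either strand in 22 of 61 members (36.1%) and 23% of other tested genes. AAGATGG, a core of YY1 sites, was found in 8 members (13.1%) and 9.93% of other genes, and TATAAA in 5 members (8.2%) and 7.33%. GGGCGG, the core of GC boxes, was found in 35 members (57.4%) and 79.6% of other genes. No share was tested, and the 4 motifs and the TOP run were counted independently, so a window can hold several.

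The members were among the most highly expressed genes of these cells, as a group and with little difference between libraries. Together they made up 8.01%, 8.42% and 8.004% of all FPKM in WT 1, 2 and 3 and 7.84%, 8.39% and 7.82% in K29Q 1, 2 and 3, so the groups overlapped (8.15% ± 0.239 against 8.02% ± 0.321, SD, n = 3 each). Of the 100 genes with the highest mean FPKM 28 were members. The median member had a mean FPKM of 186 over the 6 libraries, and the 10 highest held 38.5% of the members' sum. The order of the levels is shown in the plot of FPKM by gene and library.

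**Figure D1:**
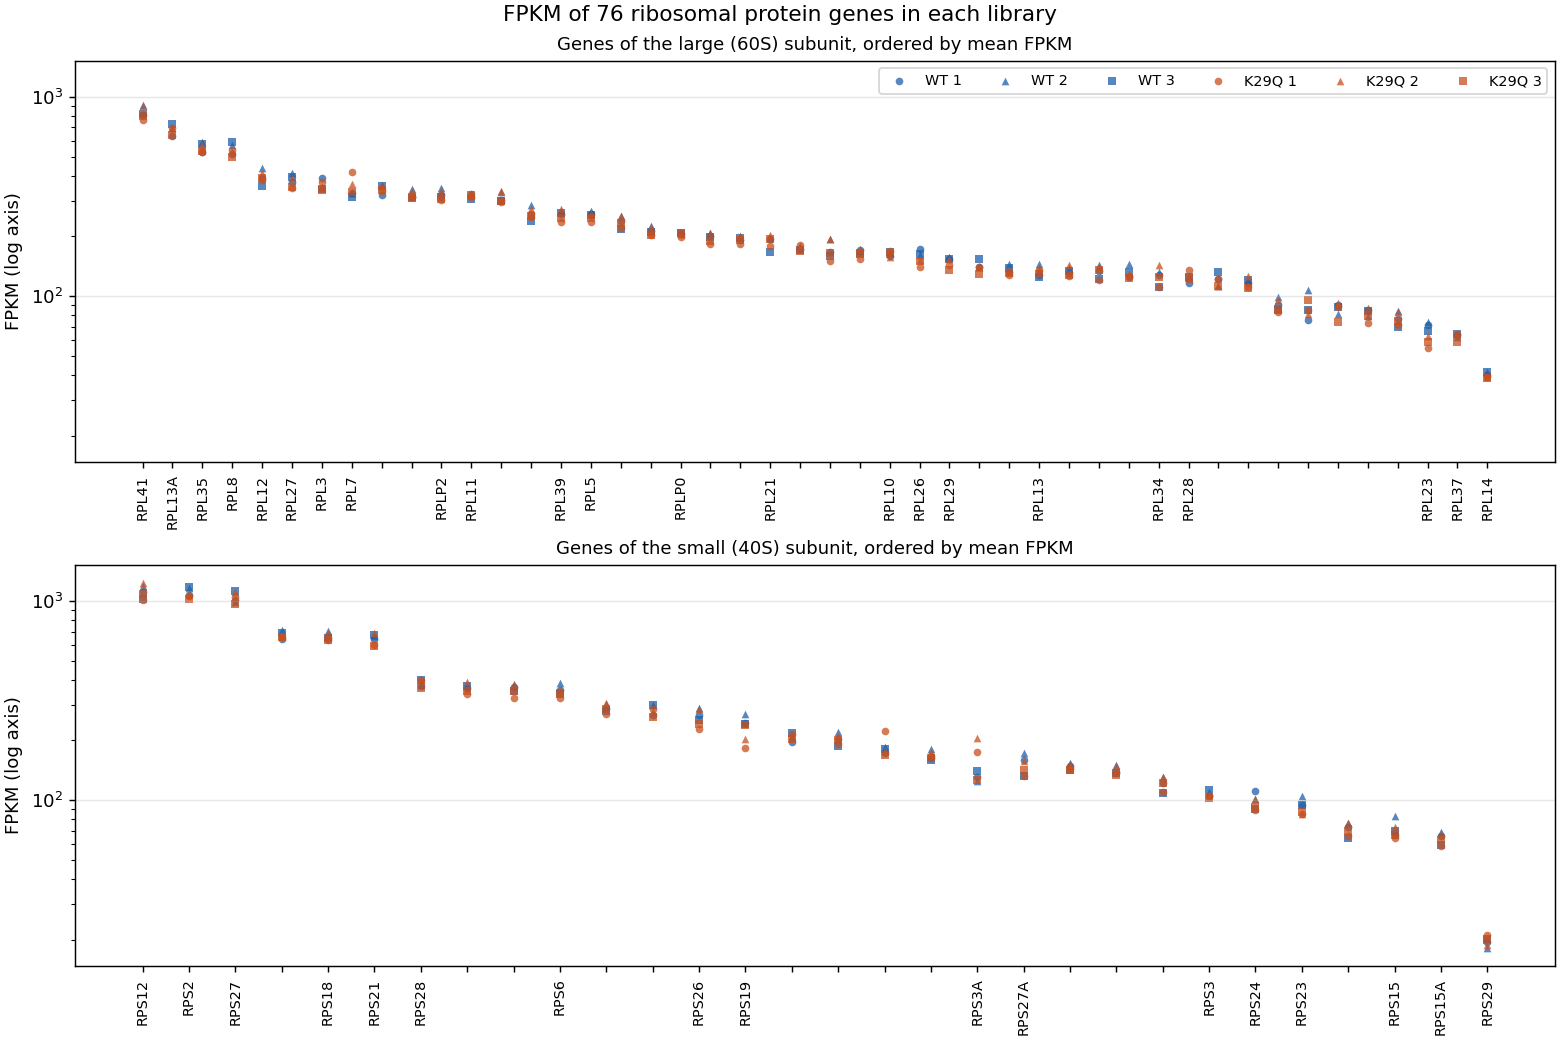
FPKM on a log axis of each of the 76 genes, ordered by mean, for the 46 large-subunit genes (top) and the 30 small-subunit genes (bottom); each point is 1 library (blue WT, orange K29Q; circle, triangle and square are replicates 1, 2 and 3) and 40 genes are labelled. Levels span from 19.6 (RPS29) to 1101 (RPS12), while the 6 points of most genes lie close together.

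Although the proteins are needed in like amounts, the mRNA levels differed 56.2-fold from the lowest to the highest gene. RPS12, a protein of the 40S beak, had a mean of 1101 ± 86.3 FPKM (SD over the 6 libraries), followed by RPS2, which lines the channel where mRNA enters (1091 ± 60.3), and RPS27, a zinc-binding 40S protein (1035 ± 63.5). The libraries of these 3 genes overlapped, so their order was not resolved. RPL41, whose product is the smallest ribosomal protein, had 833 ± 58.5 FPKM and lay below RPS27 in all libraries (760 to 906 against 961 to 1115). RPL13A (683), RPS18 (659), RPS21 (646), RPL35 (556) and RPL8 (541) were also among the 10 highest.

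At the other end stood RPS29, a small zinc-binding protein of the 40S head, at 19.5, 18.2 and 20.1 FPKM in WT and 21.1, 18.7 and 19.97 in K29Q. RPL14 was next at 40.1 ± 1.17 (SD over the 6 libraries), and no library of RPL14 overlapped with RPS29 below it or with RPL37 above it (63.2 ± 2.27). RPL37, RPS15A (64.1 ± 4.38), RPL23 (64.8 ± 7.24) and RPS15 (70.7 ± 6.87) overlapped among themselves. The medians of the subunits were 173 FPKM for the 60S genes and 204 for the 40S genes, over a range of 40.1 to 833 and 19.6 to 1101.

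Reads of near-identical copies make some of these levels uncertain. The table listed 929 rows whose symbol was a member's followed by P and a number, the usual name of a processed pseudogene, and together they held 1.81% to 2.36% of the summed FPKM of members and copies in each library. The share was largest for RPL6, whose 11 copies held 20.5% of the gene and its copies, followed by RPL23A with 15.4% over 93 copies, and RPL9 and RPL15 with 12.6% each. RPL6P27 alone was at 36.4 to 50.7 FPKM in the 6 libraries. Transcripts that run from a member into its neighbour had rows of their own, of which RPL17-C18orf32 was the most abundant at 28.0 FPKM. The exons of 13 members overlapped a gene on the same strand and those of 29 members a gene on the other strand in GENCODE 29, and the strand option of the counting is not stated in the labels.

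The K29Q comparison gave no member past an adjusted p of 0.05 in limma's test with Benjamini-Hochberg adjustment over all 13261 genes, where 7 genes (0.0528%) passed. The smallest adjusted p among the members was 0.329, for RPL23. At an unadjusted p under 0.05 there were 4 members, RPS19, RPL23, RPS23 and RPL26, all with the lower mean in K29Q (5.26% of 76, against 4.89% of all genes that were lower at this p). This count was 1 without K29Q 1, 2 without WT 2 and 2 without K29Q 2. No member was higher in K29Q at this p on the deposited values, against 7.65% of all genes, and in either direction the share over all genes was 12.5%. RPL7 was higher at this p after quantile normalization, and RPL7 and RPS3A were without K29Q 3. RPL23 was lower at this p under all 15 alternatives tried, while RPS19, RPS23 and RPL26 were each above it under some of them. The 95% interval of the fold change lay within 1.5-fold either way for 75 of 76 members, all but RPS3A, and within 1.25-fold for 67. The ratio of group means was within 10% of 1 for 70 members.

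**Figure D2:**
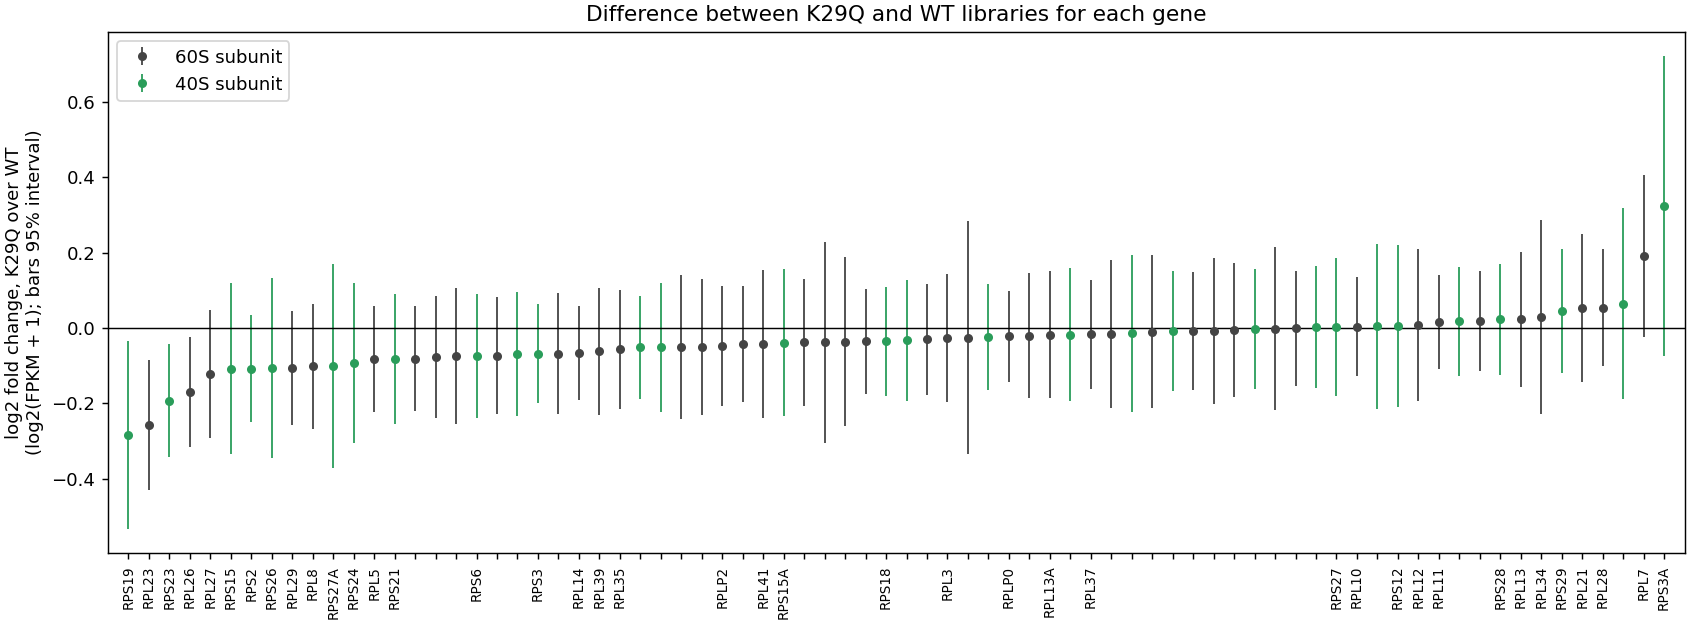
log2 fold change of K29Q over WT (limma, log2(FPKM + 1)) for each of the 76 genes, ordered by value, with the 95% interval; black points are 60S and green points 40S genes, and 40 genes are labelled. Values run from -0.28 (RPS19) to 0.32 (RPS3A), 4 intervals lie wholly below 0 and none above, and no gene passed the adjusted threshold; after quantile normalization the median of the 76 values turns from -0.034 to 0.0177.

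The direction of the small differences depended on the scaling. On the values as deposited 58 of 76 members (76.3%) had a log2 fold change below 0, against 49% of all tested genes, with a median of -0.034 against 0.00305. After quantile normalization 29 of 76 were below 0 and the median was 0.0177 (-0.011 over all tested genes), so the split turned from 58 lower and 18 higher to 29 lower and 46 higher, with 1 at 0. Large and small subunit genes had nearly the same median, -0.033 over 46 genes and -0.034 over 30, with 37 and 21 genes below 0 as deposited and 16 and 13 after quantile normalization. The summed FPKM of 40S genes over that of 60S genes was 0.922, 0.914 and 0.929 in WT 1 to 3 and 0.912, 0.926 and 0.911 in K29Q 1 to 3, which overlapped. In bulk RNA less of a transcript per cell and fewer cells that hold it cannot be told apart, and an FPKM is a share of its library.

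Other abundant and short genes also had medians below 0 on the deposited values. The 1823 other tested genes at or above the level of the lowest member had a median of -0.054 with 66.6% below 0, and the 417 of them with a coding length of at most 600 bases had a median of -0.063 with 73.1% below 0. After quantile normalization, where the members' median was above 0, these were -0.016 with 56.1% and -0.027 with 61.6%. The members' median coding length was 454.5 bases (75 to 1281), against 1374 bases for other tested coding genes. Genes with coding lengths over 1500 bases had a median of 0.024. These medians are descriptions, the part of length or level in the members' fold changes was not tested, and they are not shown to differ from those of the short abundant genes.

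The members' common level differed between libraries of the same group. WT 2 was the highest WT library for 50 of 76 members (65.8%, against 28.6% of all genes) and K29Q 2 the highest K29Q library for 59 (77.6%, against 28.2%). Of all 6 libraries WT 2 was highest for 38 members and K29Q 2 for 19, while K29Q 1 was lowest for 32 and K29Q 3 for 21. The median deviation from the gene's mean over the 6 libraries was -0.0034, 0.083 and -0.011 on the log2 scale in WT 1, 2 and 3 and -0.073, 0.055 and -0.052 in K29Q 1, 2 and 3. In the 417 other short abundant coding genes it was -0.0011, 0.064 and 0.014 in WT 1, 2 and 3. In K29Q 1, 2 and 3 it was -0.049, 0.0075 and -0.052 in these 417 genes. The high WT 2 and the low K29Q 1 and 3 were thus not particular to the members. Without WT 2 the number of members below 0 was 41 and the median was -0.00905, and without K29Q 2 they were 64 and -0.07. The median was -0.0102 without K29Q 1, -0.0223 without K29Q 3 and -0.0551 without WT 3. Leaving out both libraries numbered 2, a choice made after seeing the data, gave 55 members below 0 and a median of -0.05. WT 2 and K29Q 2 were both in run A, as was K29Q 1, the library with the lowest median.

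**Figure D3:**
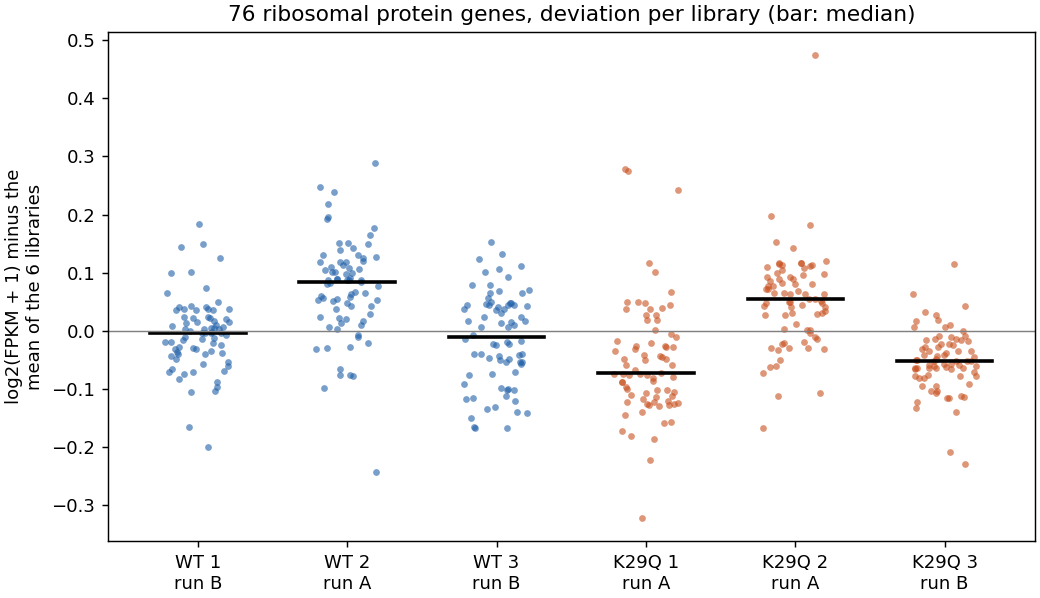
Deviation of log2(FPKM + 1) from the gene's mean over the 6 libraries, 1 point for each of the 76 genes in each library, with a black bar at the median; blue is WT, orange K29Q, and the run is named under each library. The bars of WT 2 (0.083) and K29Q 2 (0.055) stand above those of the other 4 libraries, which lie between -0.073 and -0.0034.

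Within runs most members were lower in K29Q on the deposited scale. The median difference was -0.087 in run A, with 62 of 76 below 0, and -0.035 in run B, with 51 below 0, and 40 members were below 0 and 3 above 0 in both. Over all tested genes the medians were 0.011 in both runs. Each run holds a lone library of 1 group, WT 2 in run A and K29Q 3 in run B, so neither difference has a test. RPL32, a 60S protein, had opposite signs in the runs: the difference was -0.37 in run A and 0.24 in run B, with WT 2 at 107 FPKM and the other libraries between 76.2 and 95.1.

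**Figure D4:**
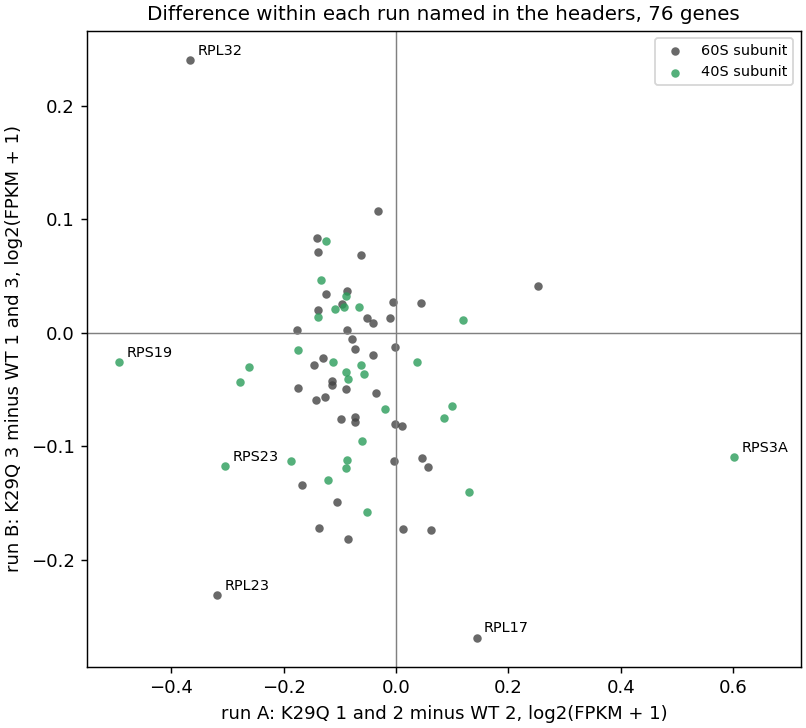
K29Q minus WT difference of log2(FPKM + 1) within run A (horizontal; K29Q 1 and 2 against WT 2) and within run B (vertical; K29Q 3 against WT 1 and 3) for 76 genes, on the values as deposited. The lower left field, where both differences are below 0, holds 40 genes; RPS3A stands apart at 0.60 and -0.11 and RPS19 at -0.49 and -0.03.

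RPS19, a protein of the 40S head that matures the small subunit and is the gene most often mutated in Diamond-Blackfan anaemia, had the lowest fold change. It was at 244, 271 and 241 FPKM in WT 1, 2 and 3 and at 182, 203 and 238 in K29Q 1, 2 and 3. All K29Q libraries lay below all WT libraries, but K29Q 3 was next to WT 3. The means were 252 ± 16.5 and 208 ± 28.4 (SD, n = 3 each), a log2 fold change of -0.28 (SE 0.11) with an adjusted p of 0.388 (limma, Benjamini-Hochberg). The difference was -0.49 in run A and -0.03 in run B, and it was -0.19 without K29Q 1. Its unadjusted p was no longer under 0.05 with the run as a term. The gene (ENSG00000105372) lies on chromosome 19 from 41859918 to 41872926 on the plus strand in GENCODE 29 (GRCh38) and has 6 exons in its main transcript.

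RPL23, a 60S protein at the face between the subunits that can also bind MDM2, had the smallest p of the members. Its FPKM was 71.4, 73.8 and 66.8 in WT and 55.2, 63.1 and 58.7 in K29Q, so the groups did not overlap. The ratio of means was 0.835 (70.7 ± 3.57 and 59.0 ± 3.996, SD, n = 3 each) and the log2 fold change -0.26 (SE 0.07), with an adjusted p of 0.329 (limma, Benjamini-Hochberg). The difference was -0.32 in run A and -0.23 in run B. Over the 15 alternatives tried it ranged from -0.307 to -0.211, and its adjusted p from 0.0981 to 0.885. The gene (ENSG00000125691, chromosome 17, 38847865 to 38853843, minus strand) holds 2 snoRNA genes in its span.

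RPS23 sits at the decoding centre, where codon and anticodon pair. It was at 94.8, 105 and 94.5 FPKM in WT and 84.8, 85.0 and 87.2 in K29Q, with no overlap. The log2 fold change was -0.19 (SE 0.06; means 98.1 ± 6.02 and 85.7 ± 1.30, SD, n = 3 each) with an adjusted p of 0.365 (limma, Benjamini-Hochberg), and -0.30 and -0.12 within runs A and B. The gene (ENSG00000186468, chromosome 5, 82273358 to 82278577, minus strand) overlaps ATG10 on the other strand, and reads of the pair cannot be told apart without strand.

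RPL26 lies at the rim of the exit tunnel and is also known to bind the mRNA of p53. It was at 173, 161 and 163 FPKM in WT and 140, 152 and 149 in K29Q, again without overlap. The log2 fold change was -0.17 (SE 0.06; means 166 ± 6.56 and 147 ± 6.58, SD, n = 3 each) with an adjusted p of 0.382 (limma, Benjamini-Hochberg). The differences within runs A and B were -0.14 and -0.17. The value was -0.092 after quantile normalization, and its unadjusted p was no longer under 0.05 there or with the run as a term. The gene is ENSG00000161970 (chromosome 17, 8377516 to 8383250, minus strand).

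In all, the groups did not overlap for 6 of 76 members (7.89%, against 17.8% of all tested genes), of which 5 were lower in K29Q (9% of all genes) and 1 was higher (8.8% of all genes). The fifth of the lower ones was RPL14, a 60S protein, whose libraries were the tightest of these: 40.1, 41.5 and 41.4 FPKM in WT and 39.4, 39.2 and 38.7 in K29Q. Its log2 fold change was -0.07 (SE 0.05), with an adjusted p of 0.612 (limma, Benjamini-Hochberg).

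RPL7, an RNA-binding protein of the 60S subunit, was the member with every K29Q library above every WT library. It was at 329, 328 and 314 FPKM in WT and 420, 364 and 331 in K29Q. The spread in K29Q was wide (372 ± 45.1 against 324 ± 8.52 in WT, SD, n = 3 each), and the log2 fold change of 0.19 (SE 0.09) had an adjusted p of 0.436 (limma, Benjamini-Hochberg). It was 0.25 in run A and 0.04 in run B, and 0.1 without K29Q 1. The gene (ENSG00000147604, chromosome 8, 73290267 to 73295789, minus strand) had 61 pseudogene rows with 6.04% of the summed FPKM of gene and copies.

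RPS3A, a 40S protein near the mRNA exit, had the highest fold change and the widest spread. Its FPKM was 131, 124 and 140 in WT and 174, 205 and 125 in K29Q. K29Q 1 and 2, both in run A, were high, and K29Q 3 lay among the WT libraries. The log2 fold change was 0.32 (SE 0.17; means 132 ± 7.77 and 168 ± 40.1, SD, n = 3 each) with an adjusted p of 0.463 (limma, Benjamini-Hochberg), 0.60 in run A and -0.11 in run B. Without K29Q 2 it was 0.167 and without K29Q 3 it was 0.52. The gene (ENSG00000145425, chromosome 4, 151099573 to 151104652, plus strand) overlaps SH3D19 on the other strand.

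**Figure D5:**
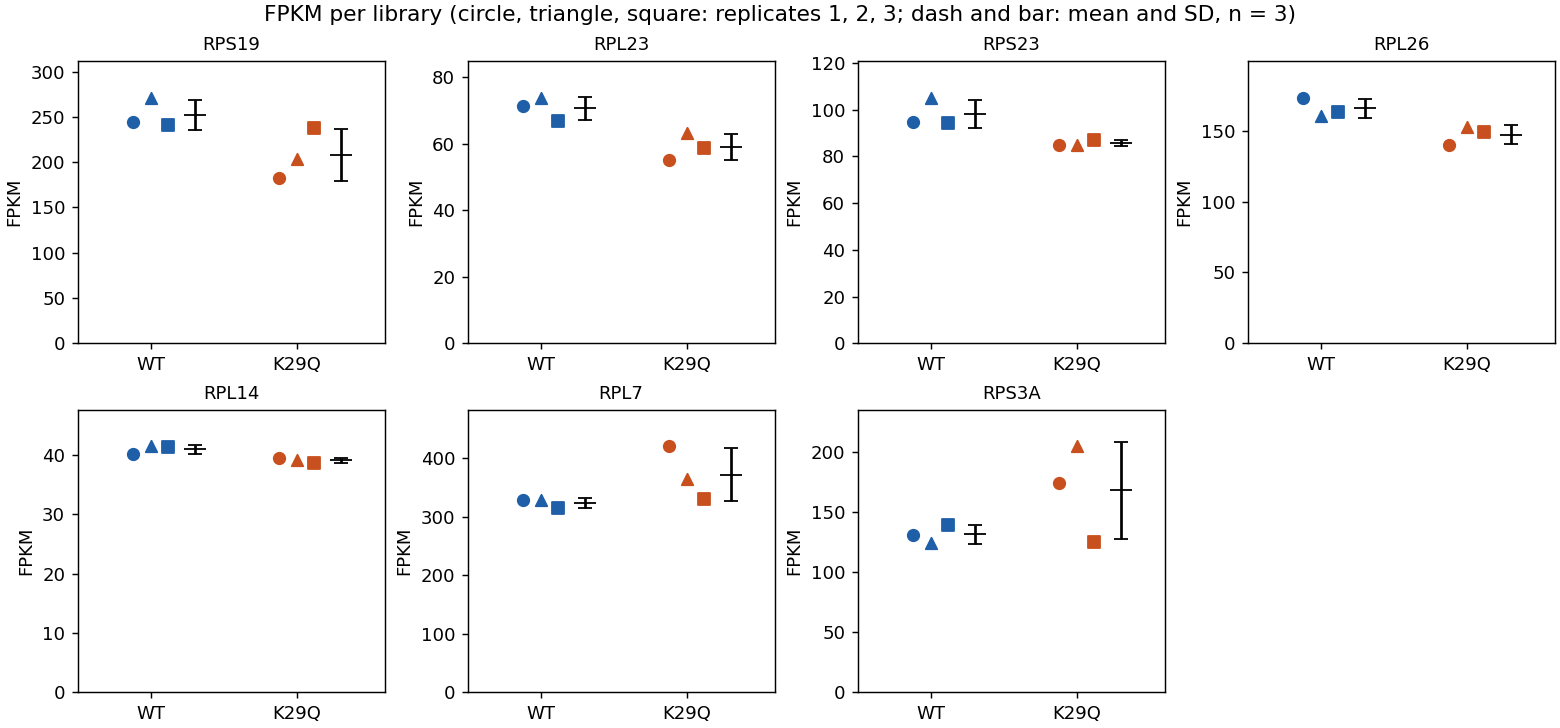
FPKM in each library (axes from 0) of RPS19, RPL23, RPS23, RPL26 and RPL14, whose K29Q libraries all lie below the WT libraries, of RPL7, whose K29Q libraries all lie above, and of RPS3A, whose groups overlap; circle, triangle and square are replicates 1, 2 and 3, and the dash and bar are the mean and SD (n = 3). The K29Q libraries of RPS3A run from 125 to 205 FPKM, around all 3 WT libraries (124 to 140) but WT 2.

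None of the other members had an unadjusted p under 0.05. After the 4 genes with an unadjusted p under 0.05 the lowest values were those of RPL27 (-0.12), RPS15 (-0.11), RPS2 (-0.11), RPS26 (-0.11), RPL29 (-0.11), RPL8 (-0.10), RPS27A (-0.10) and RPS24 (-0.09). With 1 library left out RPS15 ranged from -0.17 to -0.015, RPS26 from -0.204 to -0.039, RPS27A from -0.21 to -0.018 and RPS24 from -0.167 to -0.024. RPS2 was at 1066, 1157 and 1174 FPKM in WT and 1054, 1075 and 1022 in K29Q, where K29Q 2 overlapped WT 1. On the other side RPL28 and RPL21 had 0.05 and RPS29 0.05. The steadiest member was RPLP0, a scaffold protein of the stalk that is often used as a reference gene: its highest library was 1.05 times its lowest (WT 207 ± 1.07 and K29Q 204 ± 4.84, SD, n = 3 each). The median of this ratio over the members was 1.16, and it was largest for RPS3A (1.65), RPS19 (1.49) and RPL32 (1.41). The median within-group SD on the log2 scale was 0.084 for the members, 0.11 for all tested genes and 0.099 for other genes at or above the level of the lowest member.

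By position in the ribosome, no group of members had a gene past the adjusted threshold. The stalk, which recruits elongation factors, had 3 of 4 genes below 0 and a median of -0.013 (1 of 4 and 0.036 after quantile normalization): RPLP2 was at 327 ± 17.5 and 316 ± 16.9 FPKM, RPLP1 at 312 ± 18.8 and 311 ± 21.9 and RPL12 at 394 ± 41.5 and 395 ± 16.1 in WT and K29Q (SD, n = 3 each). RPL5 and RPL11, which bind 5S rRNA and can restrain MDM2 when ribosome assembly fails, had log2 fold changes of -0.08 and 0.02. After quantile normalization these were 0.004 and 0.075. RPL3 and RPL10, close to the peptidyl transferase centre, had -0.03 and 0.003 (-0.006 and 0.081 after quantile normalization). All 8 genes whose proteins line or rim the exit tunnel were below 0 as deposited, with a median of -0.036, but 2 of 8 after quantile normalization (0.017), and 1 (RPL26) had an unadjusted p under 0.05. RPL39, which forms part of the tunnel wall, was at 259, 267 and 261 FPKM in WT and 235, 275 and 246 in K29Q, and RPL35 at 567 ± 33.7 and 545 ± 24.0 (SD, n = 3 each), both with overlapping groups.

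On the small subunit the 4 genes of mRNA entry and decoding were all below 0 on both scales, with a median of -0.11 as deposited and -0.10 after quantile normalization. Beside RPS23 and RPS2 these were RPS3, at 109 ± 3.74 and 104 ± 2.03 FPKM in WT and K29Q (SD, n = 3 each), and RPS15. RPS26 and RPS28, at the mRNA exit, had -0.11 and 0.02 (-0.024 and 0.089 after quantile normalization). RPS6, the classic substrate of the S6 kinases, was at 357, 384 and 341 FPKM in WT and 323, 358 and 345 in K29Q, with a log2 fold change of -0.07. RPS27A, which is made as a fusion with ubiquitin, was at 160, 173 and 132 FPKM in WT and 132, 158 and 142 in K29Q. Of the 19 members mutated in Diamond-Blackfan anaemia, an inherited failure of red cell formation, 15 were below 0 with a median of -0.039, and 9 of 19 with 0.0042 after quantile normalization. RPS19 and RPL26 were the 2 of 19 with an unadjusted p under 0.05, against 12.5% of all genes.

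Subsets of members by gene structure had fold changes of like size. The members lie on 21 chromosomes, with 12 on chromosome 19 and 4 on the X chromosome, and have a median of 5 exons in the main transcript against 9 for other tested coding genes. The spans of 27 members hold 58 genes on the same strand for snoRNAs, small RNAs that guide modification of rRNA. The median log2 fold change was -0.018 in these hosts (18 of 27 below 0) and -0.038 in the 49 other members (40 below 0), and 0.020 and 0.010 after quantile normalization. It was -0.042 in the 45 members with a pyrimidine start (33 below 0), -0.021 in the 16 without (14 below 0) and -0.024 in the 15 that were not matched in the sequence table (11 below 0), on the deposited scale. Across the 76 members the correlation of the fold change with the GC content of the longest transcript was -0.14, against -0.36 across all tested genes, and genes are not independent replicates.

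The symbol rule leaves out some ribosomal proteins, such as those made as fusions. Of 12 further ribosomal proteins and paralogs 9 were tested and 5 were below 0, none at an unadjusted p under 0.05. RPSA, the 40S protein also known as laminin receptor, was at 368, 401 and 365 FPKM in WT and 322, 356 and 342 in K29Q, without overlap and with an adjusted p of 0.402 (limma, Benjamini-Hochberg). FAU, which is made as a fusion with a ubiquitin-like protein, was at 101, 122 and 95.8 FPKM in WT and 91.5, 109 and 90.7 in K29Q, with overlapping groups. RPL39L was listed at 0 in all libraries, and RPL3L and RPL10L reached at most 0.221 and 0.0346 FPKM.

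Of 16 other mRNAs known to carry a TOP motif 8 were above and 8 below 0, with a median of 0.0054 (11 above and 0.073 after quantile normalization). The 2 of 16 with an unadjusted p under 0.05, against 12.5% of all genes (7.65% higher in K29Q), were both higher in K29Q: EIF3H was at 19.3, 20.8 and 23.9 FPKM in WT and 25.2, 28.1 and 25.9 in K29Q, and EIF3E at 50.1, 41.0 and 39.9 and 50.8, 52.2 and 54.0. Both are subunits of the initiation factor eIF3, and their adjusted p were 0.348 and 0.379 (limma, Benjamini-Hochberg). The difference between these mRNAs and the members was not tested. EEF1A1, the elongation factor that brings tRNA to the ribosome, was at 798 ± 66.4 and 870 ± 74.4 FPKM in WT and K29Q (SD, n = 3 each).

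Among 16 tested genes listed for mTORC1 and TOP mRNAs, LARP4 and LARP4B included, 7 were above and 9 below 0. None of the 16 passed the adjusted threshold. The groups did not overlap for 3 of them, against 17.8% of all genes: LARP4 and TSC1 were at higher values in K29Q and RPS6KB2 at lower ones. LARP4, the 1 of 16 with an unadjusted p under 0.05 (12.5% of all genes), an RNA-binding protein that stabilises mRNAs, was at 5.63, 5.50 and 5.11 FPKM in WT and 7.16, 6.92 and 7.79 in K29Q, without overlap, with a log2 fold change of 0.37 (SE 0.07) and an adjusted p of 0.170 (limma, Benjamini-Hochberg). TSC1 and RPS6KB2 had log2 fold changes of 0.13 and -0.21, with adjusted p of 0.440 and 0.403 (limma, Benjamini-Hochberg). LARP1 was at 27.4 ± 0.364 and 26.5 ± 0.576 FPKM and MTOR at 9.51 ± 0.309 and 9.20 ± 0.208 in WT and K29Q (SD, n = 3 each). Of 8 proteins that escort new ribosomal proteins to the nucleus or onto the ribosome, 5 were below 0 and none had an unadjusted p under 0.05.

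The genes whose profile was most like the members' were sought among 1789 genes outside the rule with a mean of at least 20 FPKM, by Pearson correlation with the mean log2 value of the 76 members over the 6 libraries. They were SNX3 (0.997), UXT (0.987), LRRC75A-AS1 (0.974), FAU (0.971) and CCT3 (0.963). SNX3 was at 52.5, 58.0 and 51.6 FPKM in WT and 49.1, 55.7 and 48.8 in K29Q, highest in the libraries numbered 2 as the members were. A correlation of at least 0.9 was reached by 47 of the 1789 genes and by 13 of the 76 members, each of which is part of the mean. The points share their libraries, 6 in number, and the ranking is a description.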

How the data were processed

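The authors deposited 1 table of FPKM per gene for 6 libraries. The submitters' processing notes name HISAT2 2.1.0, StringTie and the build GRCh38. Annotation release, strand option and depth were not given in the sources used here. Of the low values of single-exon genes at most 53.8% fell on whole-fragment steps (within 0.05), so counts were not recovered and no count test was run. Symbols were taken from the table, gene structure from GENCODE 29 and start-site sequences from RefSeq (GRCh38.p14).

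The 13261 genes that reached 1 FPKM in 3 or more libraries were fitted as log2(FPKM + 1) with limma 3.58.1 in R 4.3.3 (intensity trend, group as the only term). P-values were adjusted by Benjamini-Hochberg over all of them. The code was tested on simulated data. Fold changes are on the log2(FPKM + 1) scale. Members and lists were chosen with earlier results of these data known.

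Named are the 10 highest and 6 lowest genes, up to 8 with the highest and 12 with the lowest fold changes, those with an unadjusted p under 0.05 or without overlap, up to 3 of each list and the 5 most alike. RPL32 and some further genes of the lists (RPLP1, RPL12, RPS6, RPS27A, EEF1A1, LARP1, MTOR and the markers) were named for their role or after their values were seen. Alternatives were quantile normalization, other level filters, a pseudocount of 0.1, the replicate number or the run (a string in the column headers, read as a run name) as a term, a GC and length correction, leaving out libraries, and adding pseudogene rows. Values of some genes are not reported here.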

Additional observations from a re-analysis of the deposited data

How the results depend on the processing

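The number of members past an adjusted p of 0.05 (limma, Benjamini-Hochberg) was 0 under all 15 alternatives. The number with an unadjusted p under 0.05, 4 on the deposited values, was 2 with the run as a term, 2 without both libraries numbered 2, and 1 (without K29Q 1) to 5 when 1 library was left out. Members below 0, 58 as deposited, were 29 after quantile normalization and 41 to 64 with 1 library left out, and the median of all members, -0.034, was 0.0177 and -0.07 to -0.00905. Over the 9 other alternatives, quantile normalization among them, 29 to 65 members were below 0 and the median was -0.0513 to 0.0177. With the replicate number as a block 4 members had an unadjusted p under 0.05 (3 lower and 1 higher, with RPL7 in and RPL26 out). The median was then -0.034. Deviations from the group means had correlations of -0.14, 0.18 and -0.16 between the libraries numbered 1, 2 and 3. Libraries of unlike number reached 0.25 (WT 3 with K29Q 1) and 0.21 (WT 1 with K29Q 3), so the numbers were not taken to pair the libraries. Of 40 members followed through the alternatives 21 kept their sign in every one, among them RPS19, RPL23, RPS23, RPL26, RPL14, RPL7 and RPS3A. The other 19 changed it in at least 1, by values of at most 0.078 in size, none past the threshold. The causes were not tested. Other members named in the text, such as RPL32, RPLP1 and RPL4, were not followed in this way. The signs and ranges below cover the 40 only. Signs that turned were, after quantile normalization, RPLP0 0.019, RPS12 -0.070, RPL5 0.004, RPS15A 0.020, RPL13A 0.034, RPL37 0.041, RPS27 -0.014 and RPL39 0.022. After the GC and length correction they were RPLP0 0.003, RPL3 0.019, RPL34 -0.013, RPL13A 0.027, RPLP2 0.001, RPS27 -0.004 and RPS29 -0.058. Without both libraries numbered 2 they were RPL34 -0.014, RPS12 -0.016, RPS27 -0.078 and RPS28 -0.013. With pseudogene rows added they were RPL13 -0.003, RPL12 -0.005 and RPS28 -0.006, and with the run as a term RPS12 -0.028, RPL13 -0.025, RPS27 -0.005 and RPL12 -0.034. With 1 library left out, the signs of the following turned, over these ranges: RPL3 -0.067 to 0.028, RPL10 -0.021 to 0.029, RPL11 -0.009 to 0.029, RPL12 -0.065 to 0.086, RPL13 -0.022 to 0.093, RPL13A -0.074 to 0.028, RPL21 -0.018 to 0.103, RPL34 -0.062 to 0.116, RPL37 -0.039 to 0.027, RPL41 -0.111 to 0.011, RPS12 -0.07 to 0.067, RPS15A -0.098 to 0.014, RPS27 -0.041 to 0.059 and RPS28 -0.004 to 0.067. Depth per library is unknown, so no counting error is given.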
